A study of Mus musculus with 6 samples.

Results

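Genes of DNA replication and mitosis were read out in mouse blood-forming cells carrying endogenous or overexpressed miR-125a, a microRNA. The 45 genes were named one by one and mapped to gene identifiers through GENCODE release M21 of the mouse annotation, and all 45 were among the 55450 genes of the count table. The first 22 of the list are taken as replication genes and the other 23 as mitosis genes. Mki67, a proliferation antigen that coats mitotic chromosomes, stands with the replication genes in this ordering.

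RNA came from 2000 sorted lineage-negative, Sca-positive bone marrow cells per library, of C57BL6/SJL strain, 12 weeks after stem cells (LSK/SLAM) had been transplanted into lethally irradiated recipients. The endogenous group carried miR-125a at its endogenous expression, with sample titles EV that the labels do not explain. The overexpressed group carried miR-125a overexpression, and the promoter and vector that drive it are not named in the labels. All libraries of both groups came from transplanted marrow, and 4 of the 6 labelled libraries were analysed, endogenous 1 and 3 and overexpressed 2 and 3. Whether the libraries of a group are from different recipient mice is not stated in the labels, and the p-values therefore reflect library-to-library spread alone, possibly technical. Ly6a, which encodes Sca-1, the antigen of the sort, had 1, 0, 1 and 1 counts in these libraries.

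DNA replication starts where the MCM2-7 helicase is loaded onto origins in G1 and is switched on with CDC45 and the GINS complex in S phase. PCNA then holds the polymerases on the template, and ribonucleotide reductase and thymidylate synthase supply deoxynucleotides. In mitosis, CDK1 with cyclin B drives entry, the aurora and polo kinases and the kinetochore proteins attach chromosomes to the spindle, and the anaphase-promoting complex (APC/C) ends the phase by marking cyclins and other proteins for degradation. Many replication genes are transcribed through E2F sites in late G1, and many mitosis genes through CHR elements and CCAAT boxes in G2. In bone marrow these genes are known as marks of dividing progenitors, while most long-term stem cells are out of cycle.

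The mature microRNA is shown first because its seed, bases 2 to 8 in capitals, sets which messenger RNAs it can pair with. It lies at chr17:17830817-17830840 on the plus strand, in RefSeq's annotation of GRCm38.p6.
mmu-miR-125a-5p: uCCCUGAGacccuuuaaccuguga

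A match to this seed of 7 bases was found in the longest annotated 3' UTR of 6 of the 45 genes (13.3%), against 26.4% of the 8711 tested genes with a 3' UTR. The 3' UTRs of the 45 genes were shorter, with a median of 809 bases against 1624. The sets are unlike, since 19 of the 45 genes did not pass the filter on low counts and all of the 8711 did. Of the 6 genes, Cdc6 is a replication gene and Cdk1, Ccna2, Aurka, Cenpf and Ube2c are mitosis genes. The windows below, 30 bases each of the messenger strand from GENCODE transcripts, have the match in capitals, either to seed bases 2 to 8 (7mer-m8) or to bases 2 to 7 followed by A (7mer-A1).
Cdc6 (7mer-m8): tctctcacactttgcCTCAGGGttagcttc
Cdk1 (7mer-A1): ctgcatttgctggagTCAGGGAaggtcccc
Ccna2 (7mer-A1): taaaactaaaatattTCAGGGAaaaagacc
Aurka (7mer-m8): accctcatggctgccCTCAGGGtgccttgc
Cenpf (7mer-m8): agtgtccaCTCAGGGttctggaaggtggca
Ube2c (7mer-A1): tatcaccatccttcaTCAGGGAttcgatct

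The matches lie at chr11:98922316-98922322 (Cdc6, plus strand), chr10:69337494-69337500 (Cdk1, minus strand), chr3:36565857-36565863 (Ccna2, minus strand), chr2:172356711-172356717 (Aurka, minus strand), chr1:189642584-189642590 (Cenpf, minus strand) and chr2:164777517-164777523 (Ube2c, plus strand). A match is a description of the sequence and not a measured site of binding.

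The 4 libraries held 654126 to 737431 counts. Mitochondrial genes took 4.14%, 4.22% and 6.29% of the counts of endogenous 1, endogenous 3 and overexpressed 2, and 0.558% of those of overexpressed 3. Odorant, vomeronasal and trace-amine receptor genes, 1479 in number, served as a measure of counts in genes that marrow is not known to use, and 95% of them had a mean density of at most 8.30 counts per kb of exon. Of 10808 genes tested by edgeR's quasi-likelihood F test, 0 had a Benjamini-Hochberg adjusted p under 0.05 and 566 an unadjusted p under 0.05. An exact permutation test of 2 libraries against 2 cannot go below a two-sided p of 0.333.

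Most of the 45 genes did not exceed the mean density that 95% of receptor genes stay within, and neither did most tested genes. It was exceeded by 10 of the 26 tested among the 45, against 2849 of all 10808 genes tested. By mean density 11 of the 45 exceeded it, in falling order Nusap1 (47.5 counts per kb), Rrm2 (47.2), Rrm1 (34.7), Kif20b (28.8), Uhrf1 (24.9), Ube2c (19.2), Cdk1 (18.3), Slbp (16.5), Bub1b (14.0), Pcna (13.2) and Mcm4 (11.8). By the median over the 4 libraries Uhrf1 was highest, followed by Slbp (13.7), Bub1b (11.7) and Pcna (11.5), while Nusap1 (2.59), Kif20b (2.52), Rrm2 (1.26) and Rrm1 (0.86) were low, since 1 library held most of their counts. With the 95% density set in each library on its own, 26 genes exceeded it in no library, 14 in exactly 1 and Uhrf1 alone in all 4. The number above it was 11 in endogenous 1, 7 in endogenous 3, 6 in overexpressed 2 and 3 in overexpressed 3. A count of 0 in at least 1 library, which allows up to 3 counts by counting error alone, was found for 7 genes.

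**Figure D1:**
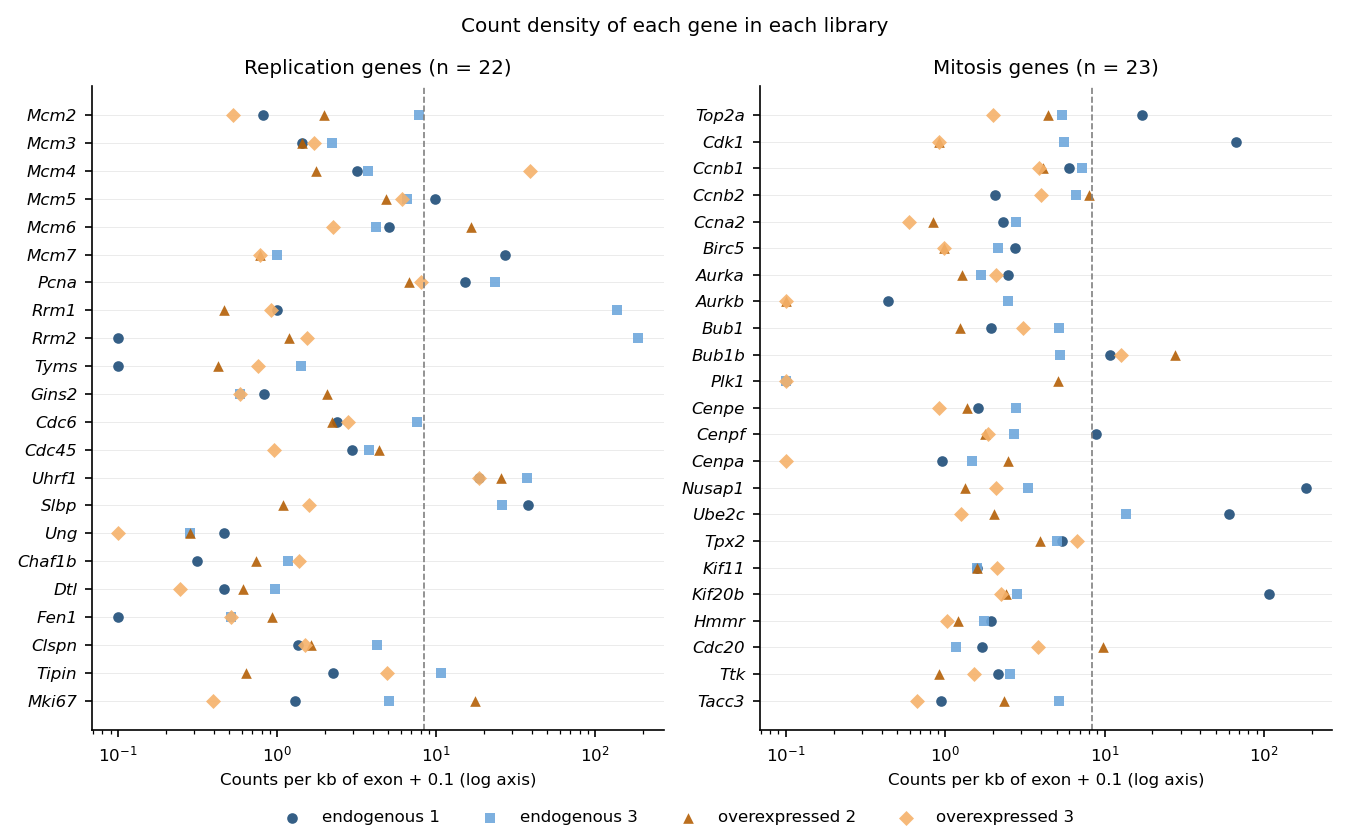
Counts per kb of exon with 0.1 added, on a log axis, of the 22 replication genes (left) and 23 mitosis genes (right) in each of the 4 libraries, 1 symbol per library. The dashed line is the mean density that 95% of receptor genes do not exceed, and single libraries lie far to the right of the others for Rrm1, Rrm2, Nusap1, Kif20b and Mcm4.

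Counts of a gene are given below in the order endogenous 1, endogenous 3, overexpressed 2 and overexpressed 3. Log2 folds are overexpressed over endogenous, from the edgeR fit over all 10808 genes.

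The 6 subunits of the MCM2-7 helicase form 1 ring, and 4 of them, Mcm2, Mcm4, Mcm6 and Mcm7, were each high in another library. Mcm4 had 11, 13, 6 and 140 counts, so overexpressed 3 alone was high. Its log2 fold was 2.64 ± 1.27 (SE, 2 libraries per group; edgeR adjusted p = 0.845) and turned to -0.76 without overexpressed 3. Mcm6 had 23, 19, 77 and 10 counts, with overexpressed 2 high and overexpressed 3 lowest. Its log2 fold of 1.22 turned to -1.04 without overexpressed 2.

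Mcm2 had 5, 54, 13 and 3 counts, with endogenous 3 high, and its log2 fold of -1.61 turned to 0.67 without that library. Mcm5 had 39, 26, 19 and 24 counts and a log2 fold of -0.51, which was 0.033 without endogenous 1. Its endogenous counts were above its overexpressed ones, but the groups overlapped after scaling by library size. Mcm7 had 119, 4, 3 and 3 counts, and endogenous 1 held 92.9% of its CPM, the counts scaled to library size. Mcm3 had 5, 8, 5 and 6 counts. Neither Mcm3 nor Mcm7 passed the filter on low counts. The highest library was endogenous 3 for Mcm2, overexpressed 3 for Mcm4, overexpressed 2 for Mcm6 and endogenous 1 for Mcm7.

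Pcna, the sliding clamp, had 36, 56, 16 and 19 counts, and the groups did not overlap. Its log2 fold was -1.24 ± 0.46 (edgeR adjusted p = 0.845) and stayed between -1.36 and -1.07 with each library left out in turn. Clspn, which carries the checkpoint signal from stalled forks, had 9, 30, 11 and 10 counts and a log2 fold of -0.70, which turned to 0.20 without endogenous 3. Its groups overlapped. The flap endonuclease Fen1, the fork protector Tipin and Dtl, which marks PCNA-bound proteins for destruction, had 0 to 20 counts and were not tested.

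Ribonucleotide reductase, made of a large subunit from Rrm1 and a small one from Rrm2, had the highest mean densities among the replication genes, carried by 1 library. Rrm1 had 10, 1504, 4 and 9 counts and Rrm2 had 0, 516, 3 and 4, so endogenous 3 alone was high for both. That library held 98.2% of the CPM of Rrm1 and 98.4% of that of Rrm2. The log2 fold of Rrm1 was -6.59 ± 2.19 (edgeR adjusted p = 0.845) and -0.65 without endogenous 3. Rrm2 did not pass the filter, and Tyms, the thymidylate synthase, had 0, 8, 2 and 4 counts.

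Cdc6, which loads the helicase, had 12, 39, 11 and 14 counts, with endogenous 3 high. Its log2 fold was -0.84 ± 0.56 (edgeR adjusted p = 0.871), and 0.027 without that library. Cdc45, the helicase cofactor, had 10, 13, 15 and 3 counts, with overexpressed 3 low, and its log2 fold of -0.19 turned to 0.61 without overexpressed 3. Gins2, a subunit of GINS, had 2 to 8 counts in each library and was not tested.

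Slbp, whose protein binds the stem-loop of replication-dependent histone messenger RNAs, had the smallest p of the tested replication genes. It had 228 and 158 counts in the endogenous libraries and 6 and 9 in the overexpressed ones, and the groups did not overlap. The log2 fold was -4.59 ± 0.80 (edgeR adjusted p = 0.814) and stayed between -4.94 and -4.07 with each library left out. Uhrf1, which brings the maintenance DNA methyltransferase to newly replicated DNA, had 79, 159, 108 and 79 counts. Its groups overlapped, with a log2 fold of -0.16 ± 0.68 (edgeR adjusted p = 0.995), which turned to 0.23 without endogenous 3 and to 0.12 without overexpressed 3. Ung, the uracil glycosylase, and Chaf1b, a histone chaperone subunit, had 0 to 6 counts.

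Mki67 had 12, 50, 176 and 3 counts, so the highest and the lowest value were both in overexpressed libraries. The log2 fold of Mki67 was 1.82 ± 1.60 (edgeR adjusted p = 0.916) and -3.22 without overexpressed 2. Of the 22 replication genes 12 were tested, 9 with a lower and 3 with a higher value, and their median log2 fold was -0.61 against -0.0058 over all genes tested. Without endogenous 3 the median of these genes was 0.11.

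Among the mitosis genes the highest library was more often endogenous 1. Cdk1, the kinase of mitotic entry, had 327, 27, 4 and 4 counts, with endogenous 1 high and both endogenous libraries above both overexpressed ones. The fitted log2 fold was -5.43 ± 1.47 (edgeR adjusted p = 0.845), and -2.41 without endogenous 1. Its cyclin partner Ccnb1 had 25, 30, 17 and 16 counts, a log2 fold of -0.60, and groups that did not overlap. The second B-type cyclin, Ccnb2, had 3, 10, 12 and 6 counts and a log2 fold of 0.63, which was -0.049 without overexpressed 2. Ccna2, the A-type cyclin, had 9, 11, 3 and 2 counts and was not tested.

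The mitotic kinases and the chromosomal passenger complex were at low counts. Ttk, the checkpoint kinase, was the tested one, with 10, 12, 4 and 7 counts and a log2 fold of -0.86 ± 0.57 (edgeR adjusted p = 0.870). Its groups did not overlap. Aurka, Aurkb and the passenger subunit Birc5 had 0 to 9 counts. The polo kinase gene Plk1 had 0, 0, 11 and 0 counts, so its whole signal was in overexpressed 2.

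Genes of the kinetochore and the spindle checkpoint went in both directions. Bub1b, which encodes the checkpoint protein BUBR1, had 46, 22, 118 and 54 counts, both overexpressed values above both endogenous ones. Its log2 fold was 1.44 ± 0.80 (edgeR adjusted p = 0.845) and ranged from 0.64 without overexpressed 2 to 2.31 without endogenous 1. Bub1, the related checkpoint kinase, had 8, 22, 5 and 13 counts and overlapping groups, with a log2 fold of -0.58 that was 0.12 without endogenous 3. Cenpf, a kinetochore protein of G2 and mitosis, had 134, 40, 26 and 27 counts, and its log2 fold of -1.67 was -0.28 without endogenous 1. The motor gene Cenpe had 13, 23, 11 and 7 counts and a log2 fold of -0.83, between -1.29 and -0.46 with each library left out. The groups did not overlap for Cenpf or Cenpe. Cenpa, the centromeric histone H3, had 0 to 14 counts.

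Nusap1, Kif20b and Top2a, of the spindle and the chromosome, were high in endogenous 1. Nusap1, a microtubule bundler, had 745, 13, 5 and 8 counts. On the log2 scale its fold was -5.88 ± 1.97 (edgeR adjusted p = 0.845) and -0.69 without endogenous 1, which held 97.0% of its CPM. Kif20b, a kinesin of late mitosis, had 751, 19, 16 and 15 counts, a log2 fold of -4.64 ± 1.74 (edgeR adjusted p = 0.845), and 0.023 without endogenous 1. Top2a, the topoisomerase that untangles sister chromatids, had 153, 48, 39 and 17 counts, and its log2 fold of -1.76 was -0.43 without endogenous 1. In each of these 3 genes endogenous 1 was above the other 3 libraries.

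Tpx2 and Kif11, both needed to build the bipolar spindle, differed little between libraries. Tpx2 had 25, 23, 18 and 31 counts and a log2 fold of 0.13, which was -0.073 without endogenous 3 and -0.20 without overexpressed 3. Kif11 had 11, 11, 11 and 15 counts and a log2 fold of 0.36, between 0.21 and 0.54 with each library left out. Hmmr and Tacc3, 2 further spindle proteins, had 2 to 18 counts and were not tested.

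Ube2c, the ubiquitin-conjugating enzyme of the APC/C, had 157, 35, 5 and 3 counts, and both endogenous libraries were above both overexpressed ones. The fold of Ube2c on the log2 scale was -4.50 ± 1.08 (edgeR adjusted p = 0.845) and -2.78 without endogenous 1. Cdc20, which activates the APC/C, had 3, 2, 18 and 7 counts, with both overexpressed libraries above, and did not pass the filter. Of the 23 mitosis genes 14 were tested, 10 with a lower and 4 with a higher value, and the median of their log2 folds was -0.85 against -0.0058 over all genes tested.

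**Figure D2:**
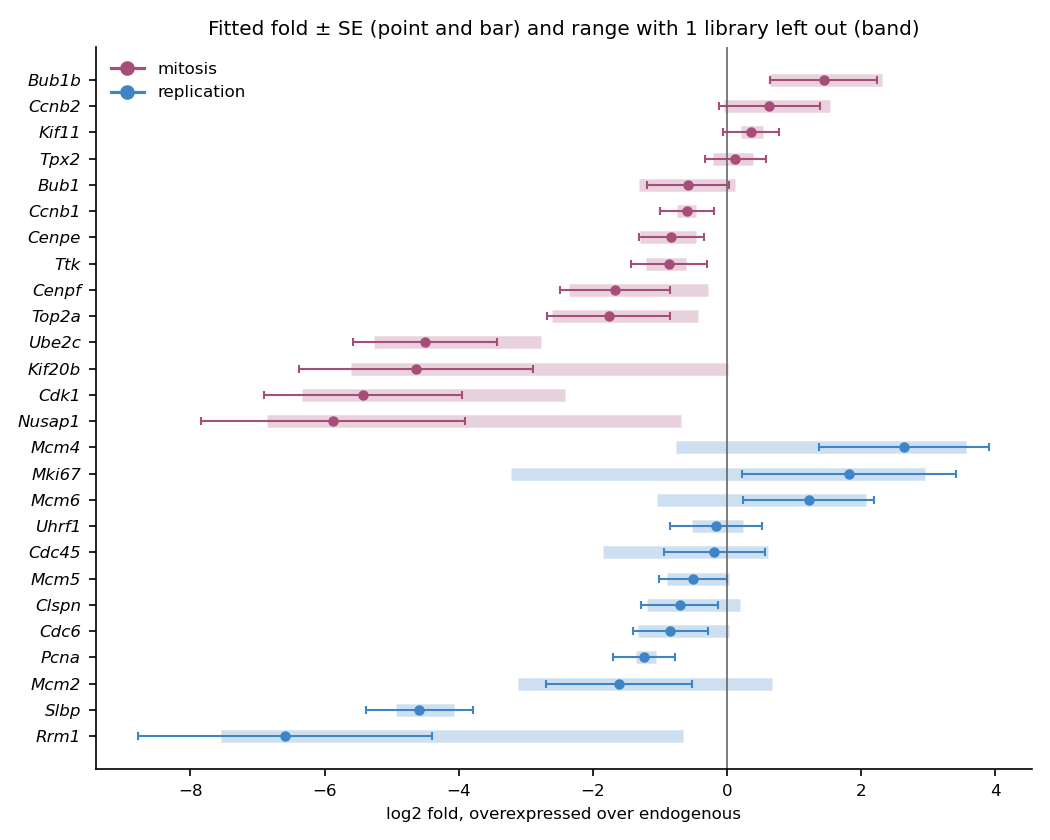
Log2 fold, overexpressed over endogenous, of the 26 tested genes, with points and bars for the fit and its SE and bands for the range with 1 library left out. The bands of Slbp and Pcna stay narrow and below 0, while those of Rrm1, Nusap1, Kif20b, Mki67 and Mcm4 are several log2 units wide.

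By the edgeR F test, 0 of the 26 tested genes had an adjusted p under 0.05, as did 0.0% of all genes tested. An unadjusted p under 0.05 with a lower value was found for 7 of the 26, Slbp, Ube2c, Cdk1, Rrm1, Nusap1, Pcna and Kif20b, against 3.11% of all genes. An unadjusted p under 0.05 with a higher value was found for 0 of the 26, against 2.13%. A gene can pass the filter through the group where it is high, so these shares of tested genes are descriptions.

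Other tests made calls. DESeq2 called 5 of the 26 lower (Nusap1, Ube2c, Slbp, Cdk1 and Kif20b), against 0.87% of all genes, and 0 higher, against 0.527%. The edgeR likelihood ratio test called 3 lower (Ube2c, Slbp and Cdk1), against 0.537%, and 0 higher, against 0.241%. With no filter on low counts, the edgeR F test called 8 of the 45 lower, against 1.07% of genes, namely Nusap1, Ube2c, Slbp, Mcm7, Rrm1, Cdk1, Rrm2 and Kif20b. It called 2 of the 45 higher, Plk1 and Mcm4, against 0.709%.

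The authors' deposited table holds 35 of the 45 genes and gives folds as endogenous over overexpressed, as the counts show for 404 of its 404 genes with an FDR under 0.05. In the authors' deposited table, 6 of the 35 had an FDR under 0.05 with the endogenous group higher (Rrm1, Nusap1, Cdk1, Ube2c, Slbp and Kif20b), against 1.46% of its genes. The authors' deposited table has 1 of the 35, Cdc20, with an FDR under 0.05 and the overexpressed group higher, against 0.91%. The log2 fold of Cdc20 in the authors' deposited table is -2.43 with an FDR of 0.0432, and that of Mcm4 is -2.66 with an FDR of 0.0992.

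A count that needs no filter on the members is the number of genes whose 2 endogenous libraries both exceeded their 2 overexpressed ones in CPM. This held for 15 of the 45, against 16.5% of the 35418 genes with a mean count of at least 1. The reverse held for 4 of the 45, Fen1, Bub1b, Kif11 and Cdc20, against 15.6%. Fen1 (0, 1, 2 and 1 counts) and Kif11 (11, 11, 11 and 15) had equal counts in libraries of both groups, and separated only after scaling. The 15 were unevenly placed, 4 of 22 replication genes (Mcm7, Pcna, Rrm1 and Slbp) and 11 of 23 mitosis genes. The 4 of 22 are near the share of all genes. Mcm7 separated by 4 counts in endogenous 3 against 3 and 3. With RLE size factors, another scaling, Mcm7 overlapped, and 3 replication genes and 11 mitosis genes were left. The 11 mitosis genes were Cdk1, Ccnb1, Ccna2, Birc5, Aurkb, Cenpe, Cenpf, Nusap1, Ube2c, Hmmr and Ttk. The difference between the 4 and the 11 was not tested.

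Single libraries held much of the signal. Over 90% of the CPM lay in 1 library for 7 genes, endogenous 1 for Mcm7, Cdk1, Nusap1 and Kif20b, endogenous 3 for Rrm1 and Rrm2, and overexpressed 2 for Plk1. Among genes with a mean count of at least 20, this was so for 6 of 19 of these genes (31.6%) and for 4.04% of all 5323. The highest library held a median of 62.9% of the CPM of the 19 genes, and 36.5% over all 5323. A gene such as Rrm2 or Mcm7 reaches a mean count of 20 through the library where it is high, so these shares are descriptions that the choice of genes can raise.

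Over these 19 genes the median absolute log2 ratio was 1.71 between the endogenous libraries and 0.45 between the overexpressed ones, and over all 5323 genes it was 0.58 and 0.59. A ratio above 8-fold between the endogenous libraries was found for 6 of the 19 genes, against 6.73% of all, and between the overexpressed ones for 3 of the 19, against 7.57%. The 10 replication genes among the 19 had 3 such ratios in each pair, and the 9 mitosis genes had 3 in the endogenous pair and 0 in the overexpressed pair. Rrm2 and Mcm7 are among the 19 only through their high endogenous library. The ratios of the endogenous pair are therefore also descriptions that the choice of genes can raise.

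**Figure D3:**
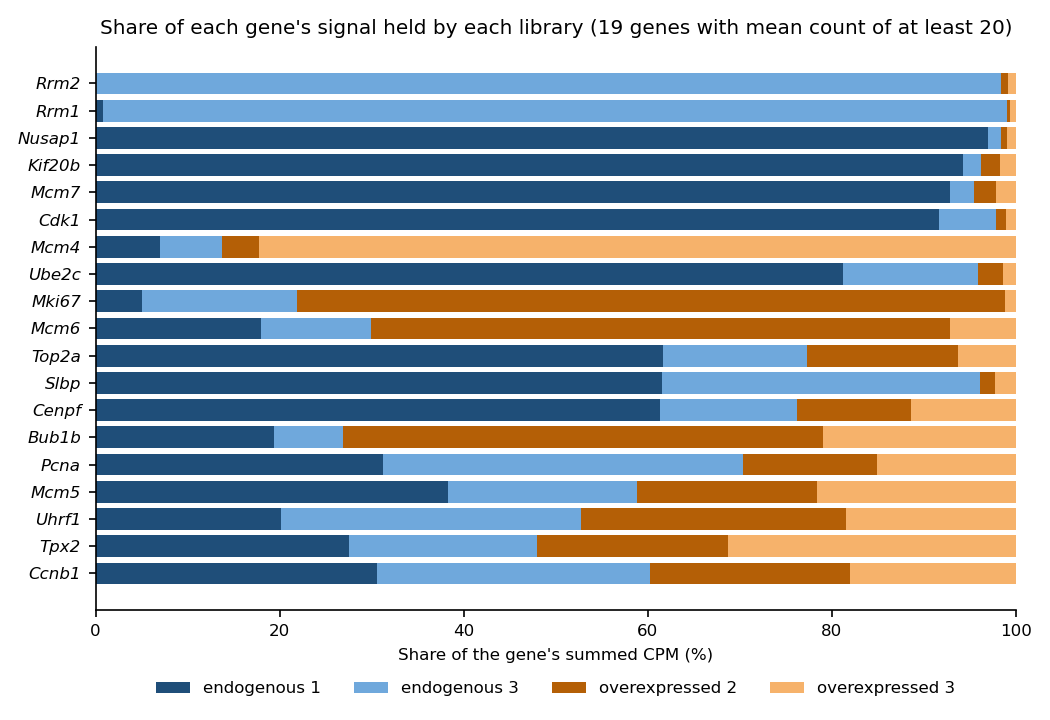
Share of each gene's summed CPM held by each of the 4 libraries, for the 19 genes with a mean count of at least 20, ordered by the share of the highest library. Rrm1 and Rrm2 are almost wholly endogenous 3, Nusap1, Kif20b, Mcm7 and Cdk1 almost wholly endogenous 1, and Ccnb1 and Tpx2 are spread over all 4.

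Over all 45 genes, replication and mitosis genes were most often highest in different endogenous libraries. Endogenous 3 was the highest library for 11 of 22 replication genes and 4 of 23 mitosis genes, and endogenous 1 for 4 of 22 and 12 of 23. Of the 5323 genes with a mean count of at least 20, the highest library was endogenous 3 for 23.3% and endogenous 1 for 24.3%. With that minimum, endogenous 3 was highest for 4 of 10 replication genes and 0 of 9 mitosis genes. Endogenous 1 was then highest for 3 of the 10 and 7 of the 9, so the replication genes were highest about equally often in these libraries. Their levels still differed by more than 8-fold between the 2 endogenous libraries for 3 of the 10. Summed over the 22 replication genes, CPM was 1092 in endogenous 1, 3885 in endogenous 3, 927 in overexpressed 2 and 590 in overexpressed 3. Summed over the 23 mitosis genes it was 4373, 577, 666 and 405 in that order. Without the genes that had over 90% of their CPM in 1 library, the sums were 863, 971, 909 and 564 for replication and 1125, 493, 599 and 360 for mitosis. The sum over all 45 was 5466 and 4463 in the endogenous libraries against 1593 and 994, so the groups did not overlap. Without the 7 genes that had over 90% of their CPM in 1 library it was 1987 and 1463 against 1508 and 924, and the groups overlapped.

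Marker lists of other cells also differed between libraries. The 14 erythroid markers summed to 262 and 3505 CPM in the endogenous libraries and 692 and 272 in the overexpressed ones, so endogenous 3, the library of Rrm1 and Rrm2, was highest. Of these markers 6 exceeded the receptor density, the globins Hba-a1, Hba-a2, Hbb-bs and Hbb-bt and the carbonic anhydrases Car1 and Car2, while the erythroid regulator Klf1 had 0 to 3 counts and was at 0 in endogenous 3. The number of the 14 at 0 was 0 and 1 in the endogenous libraries and 1 and 4 in the overexpressed ones. Their part in the level of the replication genes was not tested.

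The 12 B lineage markers summed to 891 and 403 CPM in the endogenous libraries and 412 and 616 in the overexpressed ones, so endogenous 1, the library of the high mitosis genes, was highest. Of these 12, 3 exceeded the receptor density, and 1 or 0 of them was at 0 in each library. The 9 dendritic markers summed to 1859 and 1920 against 1338 and 1504 CPM, so the endogenous sums were both higher. Single markers went both ways, with H2-Ab1 at 179, 53, 3 and 3 counts and H2-Aa at 7, 9, 96 and 801. Of the 9, 1 had both endogenous libraries above, 3 had both overexpressed ones above, and 5 overlapped. The 9 T and NK markers summed to 64.2 and 117 against 438 and 83.5 CPM. Most of the 438 was Nkg7, with 19, 25, 208 and 15 counts, and the others of this list had 0 to 25 counts. The 11 stem and early progenitor markers summed to 467 and 406 against 1338 and 395 CPM. Most of the 1338 was Fgd5, with 116, 100, 363 and 99 counts, and Flt3, with 56, 37, 242 and 33. Of the 11, 1 had both endogenous libraries above, 1 had both overexpressed ones above, and 9 overlapped. The 13 granulocyte-monocyte markers summed to 8722 and 9247 against 22251 and 13059 CPM, and the overexpressed sums were both higher. Most of each sum was Ltf, with 4538, 3735, 8490 and 7413 counts. Of the 13, 2 had both overexpressed libraries above, 1 had both endogenous ones above, and 10 overlapped. The part of these lists in the levels of the replication and mitosis genes was not tested. In bulk libraries, fewer cycling cells and less messenger RNA per cycling cell cannot be told apart.

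**Figure D4:**
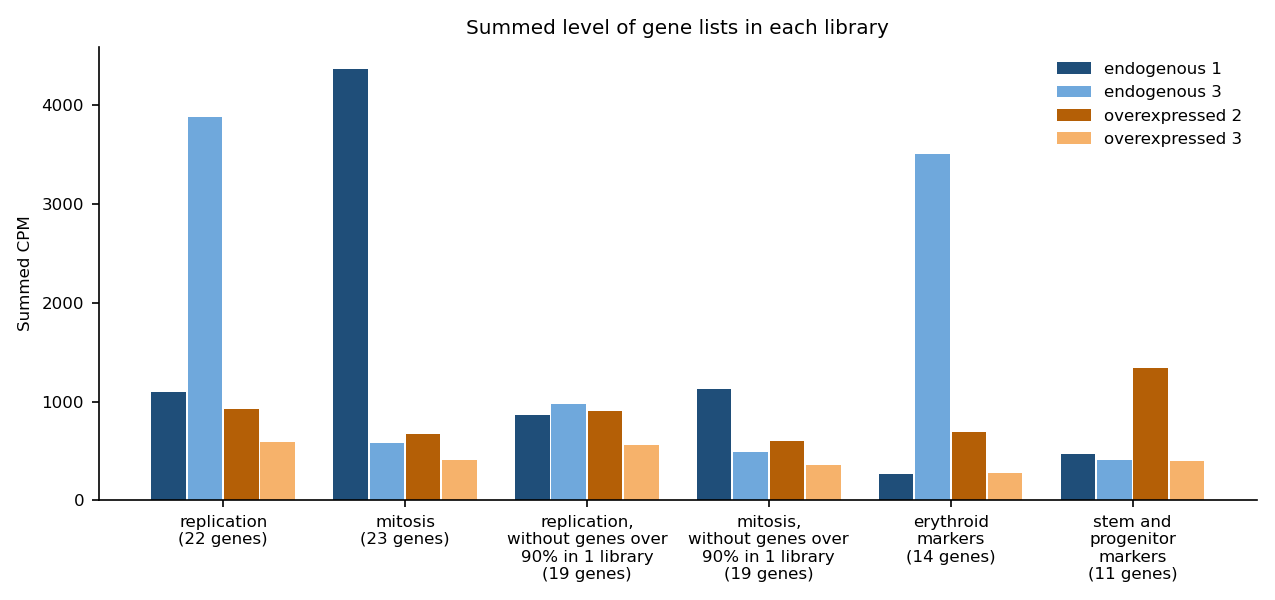
Summed CPM of the replication genes, the mitosis genes, both without the genes that had over 90% of their CPM in 1 library, and of erythroid and stem and progenitor markers, 1 bar per library. Replication genes and erythroid markers are highest in endogenous 3, and mitosis genes in endogenous 1.

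Reads of overlapping genes could add to some values. Exon bases are shared with another gene for 12 of the 45, of which 11 have a partner on the opposite strand, and the strand of counting is not given in the sources used here. Nusap1 shares 172 bases with Oip5, which had 1, 111, 3 and 1 counts, so the high library of the pair was not the same. Ube2c shares 592 bases with Tnnc2, which had 1 to 2 counts, and Slbp shares 474 with Gm10459, which had 0 in all 4 libraries. Fen1, at 0 to 2 counts, shares 1909 of its 2422 exon bases with Gm10143, which had 2, 3, 4 and 2 counts. Mcm7 shares bases with Ap4m1 and Cops6, at 3 to 21 counts, and with the microRNA genes Mir25 and Mir93, at 0 to 1. Top2a shares 122 bases on its own strand with Gm23451, which had 14, 0, 1 and 0 counts, so both were highest in endogenous 1. The 5 annotated pseudogenes named after these genes had at most 8 counts.

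Of the pathway's other genes, 172 in 11 lists, 99 were tested, 59 with a lower and 40 with a higher value, and the median of their log2 folds was -0.16. By the edgeR F test 0 of the 99 had an adjusted p under 0.05 and 7 an unadjusted p under 0.05, 6 of them lower, as did 566 of all 10808 genes, 336 of them lower. Of all 10808 genes 5443 had a lower value, beside which the counts of each list stand. For origin licensing and firing, 8 of 11 tested genes were lower, among them the kinase gene Cdc7 (log2 fold -2.36 ± 0.50, edgeR adjusted p = 0.814; 21, 19, 4 and 3 counts). Orc6, of the origin recognition complex, had 3, 114, 18 and 10 counts and a log2 fold of -1.77, which was 2.17 without endogenous 3.

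At the fork 11 of 17 tested genes were lower, with Rpa2 of the single-strand binding complex at a log2 fold of -1.35 and the nuclease gene Dna2 at 0.81. Rpa2 was at -2.41 without overexpressed 2 and -0.70 without overexpressed 3. In the replication checkpoint 4 of 6 were higher, with Rad17, the clamp loader, at 69, 103, 499 and 98 counts (log2 fold 2.01, and 0.24 without overexpressed 2). Atr, the checkpoint kinase gene, was at 0.64 and at 0.38 without overexpressed 3. In control of the step from G1 to S, 5 of 10 were lower, with Ccnd2 at -1.36 and -0.50 without endogenous 1, and Cdc25a at -1.15 and -0.43 without endogenous 3. Among CDK inhibitors 1 of 2 was lower, Cdkn2d, at -3.13 and 1.30 without endogenous 3, and Cdkn1b was 0.66 and -0.76 without overexpressed 2.

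In the kinetochore and spindle checkpoint list 6 of 8 tested genes were lower. Bub3 had 20, 254, 5 and 16 counts and a log2 fold of -3.48, and Knl1 had 45, 374, 11 and 29 and a fold of -3.18, with endogenous 3 high for both. Without that library the folds were -0.97 for Bub3 and -1.22 for Knl1. Spindle and cytokinesis genes were lower in 6 of 12, with Ckap2l at 0.87. Aspm had 20, 426, 19 and 21 counts and a log2 fold of -3.21, which was -0.027 without endogenous 3. Mitotic entry genes were lower in 2 of 5, with Bora at -0.96 and -0.39 without endogenous 3, and Cdc25b at 0.58 and 0.33 without overexpressed 2.

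Genes of the APC/C were lower in 5 of 10, with Anapc4 at 62, 20, 15 and 17 counts and a log2 fold of -1.30, which was -0.011 without endogenous 1. Anapc5 was at -0.87, and at -0.51 without overexpressed 2 and -1.37 without overexpressed 3. Of the mitotic transcription factors 3 of 4 were lower, with Lin54 at -1.06. Lin9 had 11, 57, 6 and 6 counts and a log2 fold of -2.27, which was -0.89 without endogenous 3. Of cohesin and condensin genes 10 of 14 were lower. The condensin subunit gene Smc2 was at -1.62, and the cohesin gene Smc1a had 9, 11, 259 and 9 counts and a log2 fold of 3.95, which was -0.11 without overexpressed 2. All 22 genes named here had an adjusted p of at least 0.814 by the edgeR F test. The likelihood ratio test called Cdc7 lower (adjusted p = 0.020), and DESeq2 called Knl1 and Bub3 lower and Smc1a higher (adjusted p = 0.046, 0.041 and 0.041). With no filter on low counts the edgeR F test called Cdc7, Cdkn2d, Bub3 and Aspm lower and Smc1a higher.

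Promoters were read because many of these genes share known control elements. RefSeq start sites in GRCm38.p6 gave a promoter, from 250 bases before to 50 after the start, for 39 of the 45 genes. Mcm4, Gins2, Tipin, Ccna2, Aurkb and Tpx2 were not matched. Both strands were searched for E2F (TTCCCGC or TTGGCGC), CHR (TTTGAA or TTCGAA) and the CCAAT box (CCAAT), and a TTGGCGC match on one strand can share bases with a CCAAT box on the other.

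E2F letters were found in 10 of 19 replication promoters (52.6%) and 2 of 20 mitosis promoters, against 6.93% of 27025 promoters. CHR letters were found in 5 of 19 (26.3%) and 15 of 20 (75.0%), against 19.4%. CCAAT was found in 14 of 19 (73.7%) and 16 of 20 (80.0%), against 37.9%. A match is a description of letters. The genes of the 15 CHR promoters include Cdk1, Ube2c, Kif20b, Top2a, Bub1b, Kif11 and Cdc20. Nusap1 had none of the 3 motifs in its window. The sequences below, 120 bases before to 30 after the start with matches in capitals, show the replication genes Rrm1, Slbp and Uhrf1 and the mitosis genes Cdk1, Ube2c and Kif20b.
Rrm1 (chr7:102441575-102441724, plus strand): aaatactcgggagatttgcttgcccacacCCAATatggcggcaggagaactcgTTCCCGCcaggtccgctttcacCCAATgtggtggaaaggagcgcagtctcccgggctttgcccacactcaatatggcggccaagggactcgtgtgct
Slbp (chr5:33652545-33652694, minus strand): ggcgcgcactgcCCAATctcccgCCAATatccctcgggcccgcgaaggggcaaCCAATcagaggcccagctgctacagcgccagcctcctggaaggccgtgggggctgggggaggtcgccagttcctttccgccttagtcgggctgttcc
Uhrf1 (chr17:56303217-56303366, plus strand): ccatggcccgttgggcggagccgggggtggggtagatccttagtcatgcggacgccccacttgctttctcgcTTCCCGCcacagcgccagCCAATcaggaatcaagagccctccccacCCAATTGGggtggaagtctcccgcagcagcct
Cdk1 (chr10:69352883-69353032, minus strand): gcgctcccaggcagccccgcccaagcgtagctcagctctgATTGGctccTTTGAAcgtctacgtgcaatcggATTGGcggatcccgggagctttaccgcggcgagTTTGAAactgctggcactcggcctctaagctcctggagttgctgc
Ube2c (chr2:164769809-164769958, plus strand): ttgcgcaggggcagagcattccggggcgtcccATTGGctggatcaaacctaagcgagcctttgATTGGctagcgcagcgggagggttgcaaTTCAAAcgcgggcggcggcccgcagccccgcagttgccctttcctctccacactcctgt
Kif20b (chr19:34922238-34922387, plus strand): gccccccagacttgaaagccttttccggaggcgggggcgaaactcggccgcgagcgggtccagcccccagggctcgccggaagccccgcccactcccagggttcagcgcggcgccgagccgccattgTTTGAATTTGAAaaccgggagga

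Rrm1 and Uhrf1 each hold an E2F match before the start, Slbp holds 3 CCAAT boxes and neither of the other motifs, and the mitosis genes each hold a CHR match. Cdk1 and Ube2c had both endogenous libraries above both overexpressed ones, and Kif20b, with the same element, did not. Among other mitosis genes with a CHR match, Cenpf, Hmmr and Ttk had both endogenous libraries above. Bub1b, Kif11 and Cdc20, also with a CHR match, had both overexpressed libraries above. The groups overlapped for Top2a, Ccnb2, Aurka, Bub1, Plk1 and Cenpa, which have a CHR match too. Among mitosis promoters without a CHR match, those of Ccnb1, Birc5, Cenpe and Nusap1 had both endogenous libraries above, and Tacc3 overlapped. Of all genes with a mean count of at least 1, 16.5% had both endogenous libraries above and 15.6% both overexpressed ones. Whether the element goes with the direction was not tested.

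**Figure D5:**
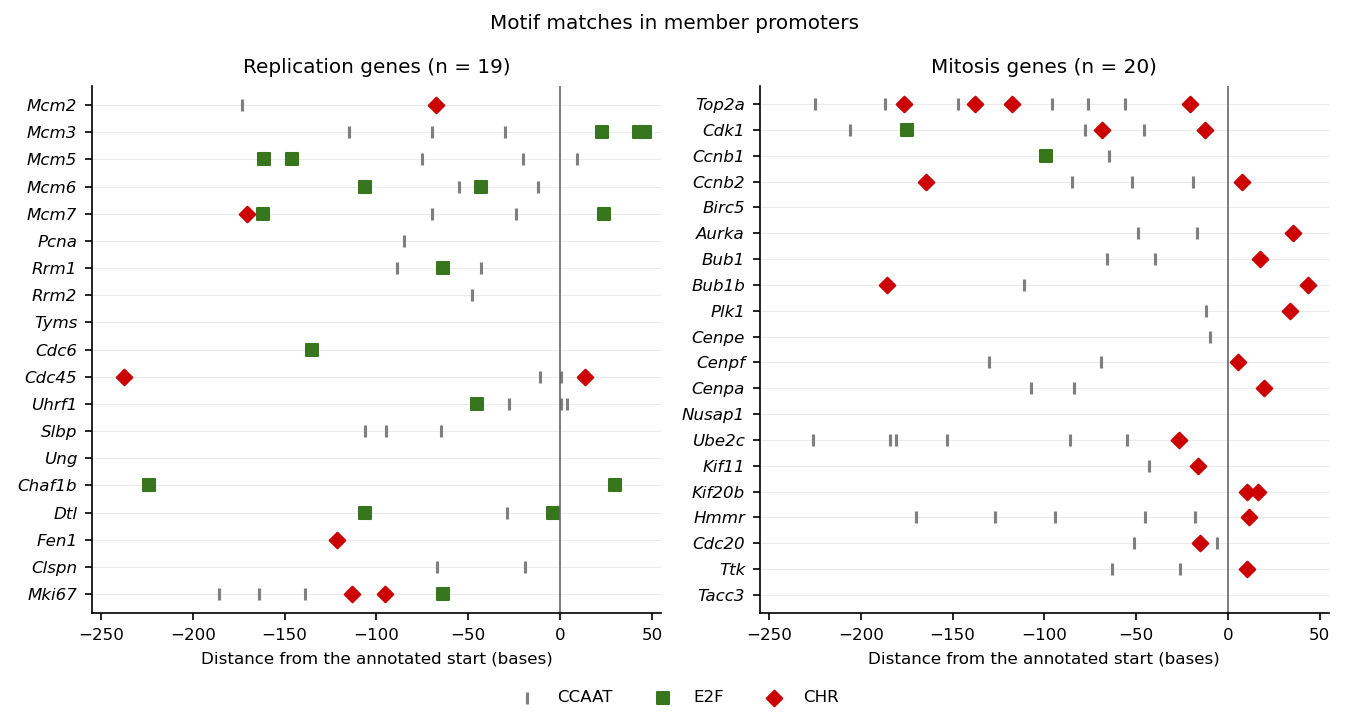
Positions of E2F, CHR and CCAAT matches relative to the RefSeq start, in bases, in 19 replication promoters (left) and 20 mitosis promoters (right), 1 row per gene. E2F matches (squares) fall mostly among the replication genes and CHR matches (diamonds) among the mitosis genes, many of them close to the start.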

How the data were processed

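Libraries were prepared from 2000 sorted cells each with a low-input kit, per the labels. FastQC 0.11.8, STAR, edgeR 3.24.3 and the mm10 build appear in the submitters' processing notes. How reads were assigned to genes, including strand, is not given in the sources used here. For 4 libraries the authors deposited raw whole-number counts of each gene. A second table deposited by the authors holds log2 folds, log2 CPM, p-values with FDR, and a likelihood ratio with a signed score, per the file headers.

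Testing used edgeR 4.0.16 (R 4.3.3) with its filterByExpr filter on low counts, TMM scaling, the quasi-likelihood F test and Benjamini-Hochberg adjustment over all genes. An SE was obtained by dividing the size of a log2 fold by the root of its F statistic. CPM uses the TMM effective library size. DESeq2 1.42.0, limma 3.58.1 and other settings were alternatives, and the fits were tested on simulated data. Named genes were the tested members and Mcm2 to Mcm7, with SE and adjusted p for those with an unadjusted p under 0.05 and for the member of each role with the largest mean count, and the 2 genes with the smallest p of each pathway list. The members, the lists and the receptor measure were chosen with earlier results of these data known. Totals of 654126 to 737431 counts limit the precision of low genes.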

Additional observations from a re-analysis of the deposited data

How the results depend on the processing

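No paired analysis was possible because the groups compared share only replicate number 3. Genes with an adjusted p under 0.05 numbered 0 by the edgeR F test, 822 with no filter on low counts, 151 by DESeq2 and 84 by the likelihood ratio test, and 0 with RLE size factors, a mean count of at least 20, the edgeR 4 method, limma-voom or each library left out. The members among them were 10, 5 and 3. The mitosis median was -1.80 over the 9 genes with a mean count of at least 20. With each library left out, the replication median ran from -1.13 to 0.11 and the mitosis median from -1.22 to -0.49. The lone library of a group was assumed to vary like the others. The number of genes with all endogenous values above all overexpressed ones ran from 6 to 13 for replication and 13 to 15 for mitosis, against 30.3% to 37.0% of all genes, an alternative chosen after seeing the data. For replication it was 13 without endogenous 1, 11 without overexpressed 2 and 8 without overexpressed 3. Fewer libraries to separate make such counts larger.

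Of 277 folds of members under alternatives, 262 kept their direction and 15 reversed, all with a library left out. Many of the 277 are refits of the same 4 libraries. Leaving out at least 1 library reversed 13 of the 26 tested members. The cause was not tested. With each library left out in turn, the log2 folds of genes that reversed ran as follows. Among replication genes they ran for Mcm2 from -3.12 to 0.67, Mcm4 from -0.76 to 3.57, Mcm5 from -0.89 to 0.033, Mcm6 from -1.04 to 2.07, Cdc6 from -1.33 to 0.027, Cdc45 from -1.85 to 0.61, Uhrf1 from -0.51 to 0.23, Clspn from -1.19 to 0.20, Mki67 from -3.22 to 2.95. Among mitosis genes they ran for Ccnb2 from -0.049 to 1.54, Bub1 from -1.31 to 0.12, Tpx2 from -0.20 to 0.39, Kif20b from -5.61 to 0.023. Among other pathway genes they ran for Orc6 from -2.68 to 2.17, Cdkn2d from -6.04 to 1.30, Cdkn1b from -0.76 to 1.62, Smc1a from -0.11 to 4.90. Reversals came without endogenous 1 for Mcm5 and Kif20b. They came without endogenous 3 for Mcm2, Cdc6, Uhrf1 (0.23), Clspn, Bub1, Tpx2 (-0.073), Orc6 and Cdkn2d, and without overexpressed 2 for Mcm6, Mki67, Ccnb2, Cdkn1b and Smc1a. They came without overexpressed 3 for Mcm4, Cdc45, Uhrf1 (0.12) and Tpx2 (-0.20).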
